A study of Mus musculus with 6 samples.

Results

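Methylation at 4 imprinted loci was followed: the *Igf2r* locus with *Igf2r*, *Airn*, *Slc22a2* and *Slc22a3*, the *Plagl1* locus, the *Grb10* locus with *Ddc*, and the *Zrsr1* locus with *Commd1*. A CpG site belonged to a locus when the deposited table named 1 of these 9 genes as the gene with the closest transcription start site (TSS), at any distance. The table listed 953 such sites among 2268080 sites. Of them, 332 had at least 10 reads in all 6 samples, among 681804 sites of the whole table that did, and these 332 sites are described unless another minimum is named. At a minimum of 5 reads there were 500 sites, and at 20 reads 174.

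At the minimum of 10 reads, *Grb10* had 129 sites, *Commd1* 71, *Plagl1* 45, *Slc22a3* 31, *Airn* 18, *Igf2r* 17, *Slc22a2* 14 and *Ddc* 7. *Zrsr1* had 0 sites because it is not among the genes that the table names. *Zrsr1* lies within an intron of *Commd1*, and the sites at its start were listed under *Commd1*.

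GS cells are cultured mouse spermatogonia that include spermatogonial stem cells. The study asked whether long storage in space changed them, by comparing cells that were kept frozen for 6 months on the International Space Station (Space GS cells, 3 replicates) with cells kept frozen on Earth for the same time (Ground GS cells, 3 replicates). All 6 samples came from spermatogonia labelled DBA/Tg14(act-EGFP-OsbY01), a strain with an EGFP transgene that was made in C57BL6 and bred into a DBA/2 background, and were cultured on mouse embryonic fibroblasts (MEFs). The design text calls the replicates biological, and the study speaks of several lines of Space and Ground GS cells for its RNA-seq. Whether the RRBS replicates are such lines, or came from separate mice, is not given in the sources used here, so p-values measure the spread between these samples only. Genomic DNA was read by reduced representation bisulfite sequencing (RRBS), which samples CpG-rich fragments. According to the study, the cells for RRBS had been thawed, cultured and passaged before analysis. The levels are therefore those of cells grown after storage, not of cells straight from the freezer. Bisulfite treatment converts only cytosines without a methyl group, so a read shows for each CpG it covers whether that CpG was methylated, and the level of a CpG site is its methylated share of reads in percent.

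Imprinted genes are expressed from 1 parental copy. At these 4 loci the difference is set in the oocyte, where a control region gains DNA methylation, while the same region stays unmethylated in the male germline. In somatic cells the maternal copy is therefore methylated and the paternal copy is not. The control regions are the *Airn* promoter within *Igf2r*, the *Plagl1* promoter, an internal CpG island of *Grb10* and the *Zrsr1* promoter.

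The CpG sites that carry these descriptions are shown in their sequence context, taken from the GRCm38 assembly and its RefSeq promoters. The deposited coordinates are in mm39, so a sequence was joined to the table only by the spacing of its CG letters, and no coordinate was converted. CG letters in capitals are sites read at least 10 times in every sample, or at least 5 times for *Plagl1*. Sequences are written 5′ to 3′ on the strand of the gene whose start they describe, which is *Airn* for the *Igf2r* control region.

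The first sequence lies within the region amplified by the second, nested primer pair of the study, 826 to 1315 bp downstream of the RefSeq start of *Airn*. The study reported bisulfite sequencing of the *Igf2r* control region for tail DNA of the offspring, which is not the material read here. The printed sequence is part of intron 2 of *Igf2r* and of an intron of *Airn* (GRCm38 chr17:12742250-12742435, plus strand). All 16 sites of the table in the amplified region fell on CG letters, against 10 at the next best placement, and 10 of them passed the minimum.
Igf2r control region: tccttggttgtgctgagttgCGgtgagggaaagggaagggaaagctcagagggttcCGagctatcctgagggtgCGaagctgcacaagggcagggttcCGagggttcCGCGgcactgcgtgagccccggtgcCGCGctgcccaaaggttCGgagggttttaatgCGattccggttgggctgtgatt

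The next sequence is the *Plagl1* promoter up to the first untranslated base of a GENCODE transcript (GRCm38 chr10:13090582-13090787, plus strand). All 21 sites of the table in the RefSeq promoter window fell on CG letters, against 6 at the next best placement. The table uses another, upstream TSS of *Plagl1*, and from that TSS the 11 sites in capitals lay 30131 to 30261 bp downstream.
Plagl1 promoter: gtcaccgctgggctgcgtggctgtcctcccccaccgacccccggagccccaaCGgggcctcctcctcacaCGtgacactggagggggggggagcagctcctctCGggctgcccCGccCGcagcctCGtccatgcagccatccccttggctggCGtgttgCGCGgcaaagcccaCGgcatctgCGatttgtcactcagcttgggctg

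The *Zrsr1* promoter lies in an intron of *Commd1* (GRCm38 chr11:22971755-22972004, plus strand). All 5 sites in its window fell on CG letters, against 4 at the next best placement, which by itself is a weak match. The window of the second *Commd1* start, where 14 of 14 sites matched against 5, lay 1062 bp away in RefSeq and 1062 bp away in the table.
Zrsr1 promoter: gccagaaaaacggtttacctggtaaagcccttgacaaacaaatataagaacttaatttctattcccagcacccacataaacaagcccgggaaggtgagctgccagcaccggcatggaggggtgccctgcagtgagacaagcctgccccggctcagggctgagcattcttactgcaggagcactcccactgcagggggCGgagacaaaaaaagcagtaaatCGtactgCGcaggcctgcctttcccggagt

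For comparison, the promoters of the protein-coding *Igf2r* (GRCm38 chr17:12769707-12769956, minus strand, within *Airn*) and of *Grb10* (GRCm38 chr11:12037421-12037670, minus strand, in a *Grb10* intron of GENCODE) are shown. They matched at 27 of 27 and 37 of 37 sites, against 10 and 14.
Igf2r promoter: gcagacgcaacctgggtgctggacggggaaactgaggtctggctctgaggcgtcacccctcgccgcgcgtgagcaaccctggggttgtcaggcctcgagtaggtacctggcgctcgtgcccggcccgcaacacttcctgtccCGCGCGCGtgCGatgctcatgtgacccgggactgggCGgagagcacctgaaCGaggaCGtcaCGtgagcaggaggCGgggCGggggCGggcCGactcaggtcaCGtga
Grb10 promoter: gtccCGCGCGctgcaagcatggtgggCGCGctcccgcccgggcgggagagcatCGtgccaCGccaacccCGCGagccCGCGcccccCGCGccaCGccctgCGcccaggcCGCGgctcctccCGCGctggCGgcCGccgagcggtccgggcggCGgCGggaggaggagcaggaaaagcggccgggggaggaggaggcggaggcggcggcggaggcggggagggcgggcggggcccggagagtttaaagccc

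Most of these CpG sites were nearly unmethylated in both groups. The mean level of the 6 samples was under 10% at 287 of the 332 sites (86.4%), 10% to 90% at 22 sites (6.63%) and over 90% at 23 sites (6.93%). Over all 681804 sites these shares were 77.4%, 7.55% and 15.1%. At 29 sites (8.73%) no methylated read was found in any sample, compared with 9.27% of all sites. Within 1 kb of the TSS, 87 of 90 sites were under 10%, and the other 3 belonged to *Slc22a2*. Beyond 15 kb, 33 of 53 sites were under 10%, and the 33 sites of *Plagl1* at 30321 to 30624 bp downstream made up this number.

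**Figure D1:**
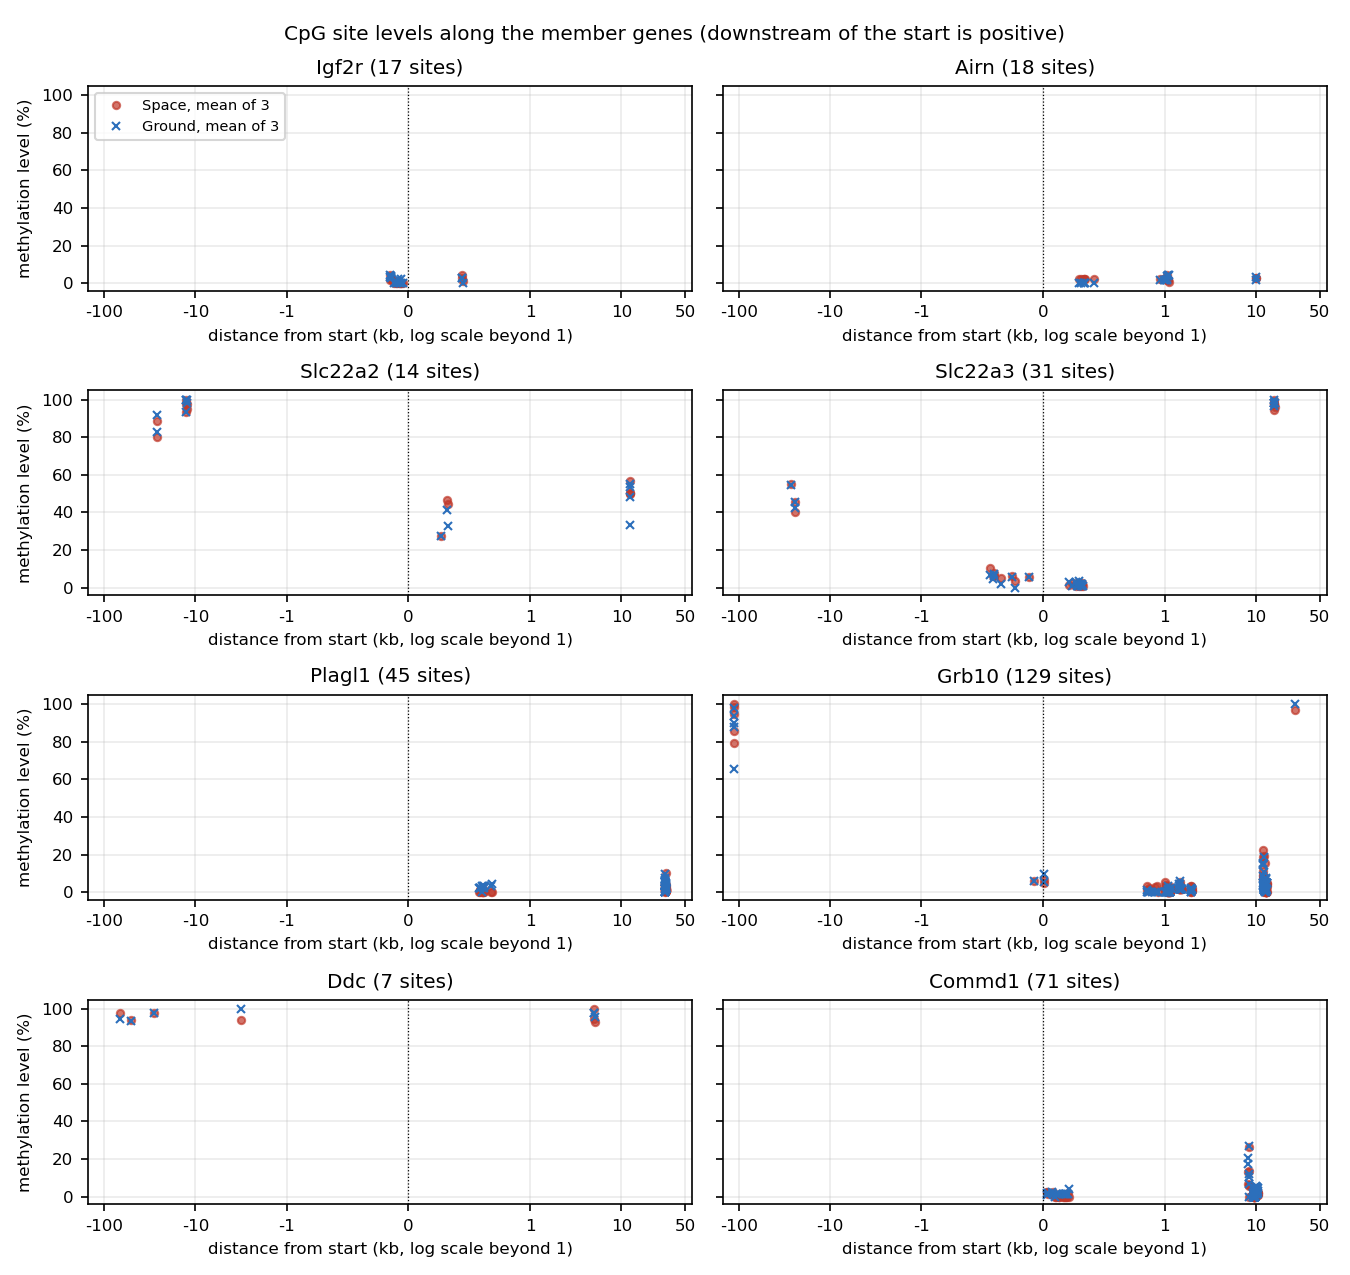
Mean methylation level (%) of each of the 332 CpG sites in Space (circles) and Ground GS cells (crosses), n = 3 each, against the signed distance from the TSS in the table (kb, log scale beyond 1 kb), for the 8 genes with sites. All sites of *Igf2r*, *Airn* and *Plagl1* were under 10%, all 7 sites of *Ddc* were over 90%, and *Slc22a2* had no site under 10%.

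Sites no more than 100 bp apart were joined, which gave 26 stretches of at least 3 sites with 319 sites in all, and 10 runs of 1 or 2 sites with the other 13. Of the 26 stretches, 18 were under 10%, 4 were over 80% and 4 lay between. The level of a stretch or gene is the mean of its site levels, errors are SDs over 3 replicates, and replicates are named Space 1 to 3 and Ground 1 to 3.

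**Figure D2:**
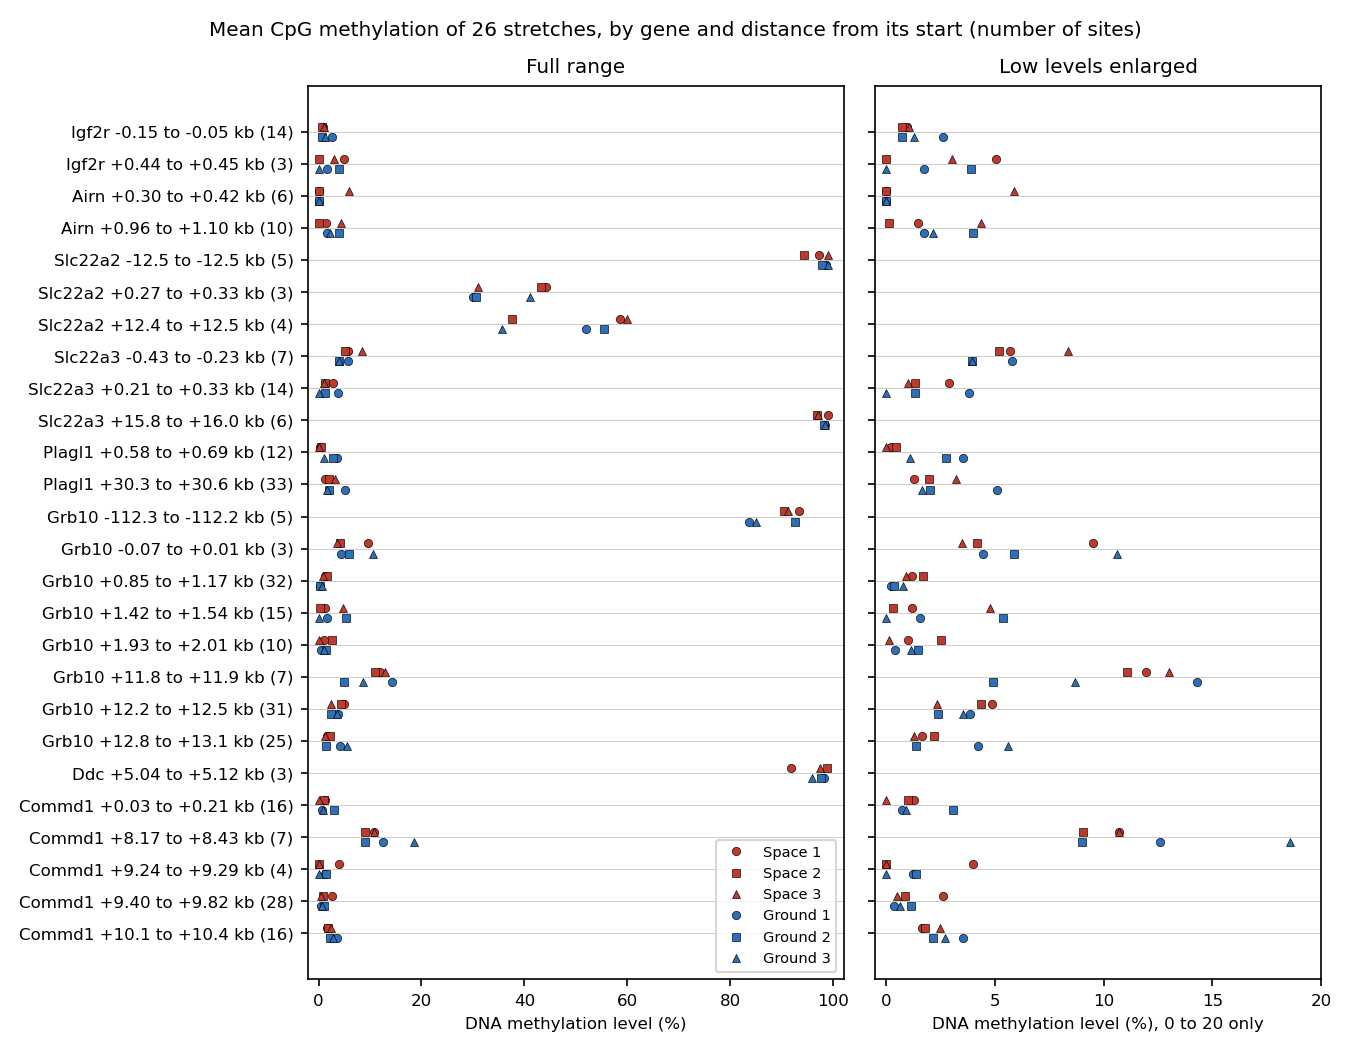
Mean methylation level (%) of the 26 stretches in each sample, on the full scale (left) and enlarged from 0 to 20% (right), with Space above Ground on each line and the number of sites in parentheses. The groups overlap except at 2 stretches, with the widest spread (35.6% to 60%) at *Slc22a2*, and the 4 stretches between 10% and 80% belong to *Slc22a2*, *Grb10* and *Commd1*.

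*Airn* is a long non-coding RNA that silences *Igf2r* and, in some tissues only, *Slc22a2* and *Slc22a3* on the paternal copy. Its promoter region is the control region of the locus. The stretch printed above, 960 to 1104 bp downstream of the *Airn* TSS (10 sites, mm39 chr17:12961157-12961301), had levels of 1.49%, 0.159% and 4.38% in Space 1 to 3 and of 1.73%, 3.99% and 2.15% in Ground 1 to 3. The groups overlapped, at 2.01% ± 2.16 and 2.62% ± 1.2 (SD, n = 3 each, exact permutation p = 0.7). Single sites had means of 1.68% to 4.03%, so no site of the stretch stood apart.

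Closer to the *Airn* TSS, at 297 to 423 bp (6 sites, mm39 chr17:12960494-12960620), 5 of the 6 samples had no methylated read. In Space 3, 1 of 17 reads was methylated at each of the 6 sites (5.88%, 95% Wilson interval 1.05% to 27.0%). All 6 sites had the same coverage within each sample, so the same reads covered them, and the 5 samples without a methylated read had 11 to 21 reads. A count of 0 allows up to 14.3% at 21 reads and 27.3% at 11 reads. At 9998 to 10015 bp, 2 further *Airn* sites had levels of 0% to 4.44%.

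*Igf2r* encodes the receptor that binds IGF2 and mannose-6-phosphate and removes IGF2 from the cell surface. Its own promoter, which the sequence above shows with 14 sites in capitals (47 to 150 bp upstream of the TSS), had 0.965%, 0.752% and 1.05% in Space and 2.60%, 0.725% and 1.31% in Ground GS cells. At 7 of these 14 sites there was no methylated read in any sample. Downstream of the TSS (437 to 451 bp, 3 sites) levels ranged from 0% to 5.05%. At the lower minimum of 5 reads, this stretch grew to 36 sites from 175 to 451 bp, and its level was 0.502% ± 0.299 in Space and 0.506% ± 0.568 in Ground GS cells.

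*Slc22a2* and *Slc22a3* encode organic cation transporters and, unlike *Airn* and *Igf2r*, had sites over 10%. *Slc22a2* showed intermediate methylation within its gene. At 266 to 330 bp downstream of its TSS (3 sites) the levels were 44.1%, 43.2% and 30.9% in Space and 30.1%, 30.6% and 41.0% in Ground GS cells. At 12423 to 12454 bp (4 sites) they were 58.5%, 37.5% and 60%, and 52.0%, 55.4% and 35.6%. The replicates of both groups spread over the same range in both stretches (exact permutation p = 0.2 and 0.5). Upstream of *Slc22a2*, 5 sites at 12463 to 12539 bp were methylated at 94.3% to 99%, and 2 sites at 26505 to 26508 bp at 76.6% to 94.6%.

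The *Slc22a2* stretch near the TSS was the most different of the 26, with 39.4% ± 7.39 in Space and 33.9% ± 6.18 in Ground GS cells. With sites of at least 5 reads it had 4 sites (266 to 388 bp), with 41.4%, 39.1% and 38.2% in Space and 26.1%, 28.5% and 37.0% in Ground GS cells. In that form the groups did not overlap (exact permutation p = 0.1, the smallest that 3 against 3 samples allow). At the minimum of 10 reads the groups of this stretch overlapped, while they were apart at 9.26% of 49134 stretches of the whole table. The share at 5 reads is not given here. The neighboring site at 515 bp, also under 10 reads, had 66.7%, 73.3% and 70.0%, and 42.9%, 64.7% and 50%. With 20 reads, the level of the stretch fell from 36.7% to 27.4% because fewer sites were left.

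*Slc22a3* was low at its TSS and methylated within the gene. Its 14 sites at 212 to 325 bp downstream had levels of 0% to 3.82%, and its 7 sites at 231 to 433 bp upstream had 3.94% to 8.37%. The 6 sites at 15850 to 15974 bp had 96.8% to 99% in all samples. Far upstream, 2 sites at 24013 to 24043 bp were at 39.9% to 48.5%, and 1 site at 26874 bp was at 38.1% to 65.0%. These 3 sites were intermediate in all 6 samples.

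*Plagl1* encodes a zinc-finger transcription factor. Its control region coincides with the promoter printed above. Downstream of the sites in capitals, 33 sites (30321 to 30624 bp downstream of the TSS of the table, mm39 chr10:12966568-12966871) had 1.30%, 1.98% and 3.20% in Space and 5.08%, 2.04% and 1.67% in Ground GS cells. The groups overlapped at 2.16% ± 0.962 and 2.93% ± 1.87 (exact permutation p = 0.6).

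The printed promoter itself had fewer reads. Its 11 sites were each read 9, 9 and 12 times in Space 1 to 3 and 6, 12 and 11 times in Ground 1 to 3. In Space 2, 1 or 2 reads were methylated at each of the 11 sites. In Space 3, 2 of the 12 reads were methylated at each site (16.7%, 95% Wilson interval 4.70% to 44.8%), and in Ground 3, 2 or 3 of the 11 reads were. Space 1 and Ground 2 had no methylated read, and Ground 1 had 2 methylated reads at 1 site. Methylated reads were thus found at all 11 sites in 3 samples and at no site or 1 site in the other 3, with both groups in each set. The reads are too few to separate these sets. The 95% Wilson interval at a site was 0% to 29.9% in Space 1 and 0% to 24.2% in Ground 2. At the sites with the fewest methylated reads it was 1.99% to 43.5% in Space 2 and 5.14% to 47.7% in Ground 3, so the intervals overlapped. The group means were 9.60% ± 8.62 and 7.62% ± 10.7 (exact permutation p = 1).

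Near the TSS that the table uses, 12 *Plagl1* sites at 580 to 689 bp downstream (mm39 chr10:12936827-12936936) had 0.225%, 0.45% and 0% in Space and 3.53%, 2.78% and 1.11% in Ground GS cells. All Ground replicates were above all Space replicates, and the means were 0.225% ± 0.225 and 2.47% ± 1.24. Summed over the 12 sites, there were 1, 2 and 0 methylated reads in Space and 12, 12 and 4 in Ground GS cells. All reads of a sample, summed likewise, came to 324 to 464. A read that spans several sites enters such a sum once per site. The sites from 580 to 623 bp, except that at 607 bp, had equal coverage within each sample. In Ground 1 this was 28 reads, with 3.57% methylated at each of these sites. The sums therefore overstate the number of separate reads behind the difference. In the quasi-binomial test moderated with limma the unadjusted p was 0.0171 and the adjusted p 0.942, so the difference did not pass the threshold.

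*Grb10* encodes an adaptor protein that inhibits signaling from the insulin and IGF receptors. Its control region is a CpG island inside the gene, about 12 kb from the first start. There, 31 sites at 12220 to 12489 bp downstream of the TSS (mm39 chr11:11976193-11976462) had 4.87%, 4.35% and 2.34% in Space and 3.86%, 2.39% and 3.54% in Ground GS cells. A further 25 sites at 12769 to 13073 bp (mm39 chr11:11975609-11975913) had 1.64%, 2.23% and 1.30%, and 4.25%, 1.39% and 5.62%. Both stretches were low in all 6 samples, and the groups overlapped (exact permutation p = 0.6 and 0.3).

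Some sites of this island were higher. Ahead of both stretches, the 7 sites at 11827 to 11900 bp had 12%, 11.1% and 13.0% in Space and 14.3%, 4.93% and 8.70% in Ground GS cells, and single sites had means of 5.43% to 18.9%. Within the stretch at 12220 bp, the site at 12308 bp had 18.7%, 23.9% and 15.2% in Space and 26.4%, 8.51% and 21.8% in Ground GS cells, with 46 to 75 reads per sample. The site at 12489 bp, at the far end of this stretch, had 13.6%, 21.1% and 12% in Space and 4.55%, 0% and 9.09% in Ground GS cells. This was the *Grb10* site with the smallest p (unadjusted 0.0708, adjusted 0.974 in the quasi-binomial test moderated with limma), although its groups did not overlap.

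The *Grb10* start region was low over 4 stretches from 74 bp upstream to 2014 bp downstream, with 0% to 10.6% in single samples. In the 32 sites at 852 to 1168 bp, which hold the 23 sites of the printed promoter, the levels were 1.21%, 1.72% and 0.910% in Space and 0.232%, 0.384% and 0.761% in Ground GS cells. All Space replicates were above all Ground replicates (1.28% ± 0.412 and 0.459% ± 0.272), with an unadjusted p of 0.0170 and an adjusted p of 0.942 in the quasi-binomial test moderated with limma. With sites of at least 5 reads, this stretch, the next one at 1418 bp and 57 less covered sites made up 1 stretch of 104 sites at 639 to 1649 bp, with 1.12% ± 0.324 in Space and 1.18% ± 0.526 in Ground GS cells. The groups overlapped in this longer stretch.

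The 15 sites at 1418 to 1537 bp of *Grb10* were low in both groups. Their levels were 1.18%, 0.317% and 4.76% in Space and 1.58%, 5.40% and 0% in Ground GS cells. In Space 3 and Ground 2 each site had 21 reads, and 1 or 2 of them were methylated at all 15 sites. Far upstream of *Grb10*, 5 sites at 112246 to 112289 bp were methylated at 83.6% to 93.3%. The site at 112246 bp had the largest *Grb10* difference, with 79.5% ± 8.28 in Space and 65.3% ± 22.5 in Ground GS cells, less than the distance between the Ground replicates (exact permutation p = 0.4).

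*Ddc* encodes aromatic L-amino acid decarboxylase, which makes dopamine and serotonin. None of its sites with 10 reads lay within 1 kb of its TSS. The 3 sites at 5036 to 5119 bp downstream had 91.7% to 98.7%, and the 4 single sites between 3170 and 66059 bp upstream had 89.8% to 100%. The mean over the 7 sites was 96.0% ± 2.51 in Space and 96.8% ± 0.630 in Ground GS cells.

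*Commd1*, which takes part in copper transport and the control of NF-κB, contains *Zrsr1*, an intronless gene related to the splicing factor U2AF. Around the start of *Zrsr1*, 16 sites listed at 10125 to 10429 bp downstream of the *Commd1* TSS (mm39 chr11:22921952-22922256) had 1.66%, 1.77% and 2.48% in Space and 3.52%, 2.17% and 2.73% in Ground GS cells. The groups overlapped (1.97% ± 0.444 and 2.81% ± 0.677, exact permutation p = 0.2). The 3 sites in capitals in the printed *Zrsr1* promoter had 0% to 6.94%. The next 28 sites, at 9400 to 9816 bp, had 0.387% to 2.62%, and 4 sites at 9241 to 9294 bp had 0% to 4%.

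Beyond these, the 7 sites at 8170 to 8434 bp of *Commd1* had 10.7%, 9.06% and 10.7% in Space and 12.6%, 8.99% and 18.6% in Ground GS cells. The means of its sites ranged from 0% to 26.5%, and the highest value in a single sample was 38.7% at 8305 bp in Space 1. The site at 8236 bp (mm39 chr11:22924145) had 6.67%, 3.70% and 9.09% in Space and 5%, 23.1% and 33.3% in Ground GS cells, the largest difference and the smallest p of the locus (unadjusted 0.0249, adjusted 0.974 in the quasi-binomial test moderated with limma). Its groups overlapped, since Ground 1 lay within the Space replicates. The *Commd1* TSS itself was low, with 0% to 3.10% over 16 sites at 32 to 215 bp.

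**Figure D3:**
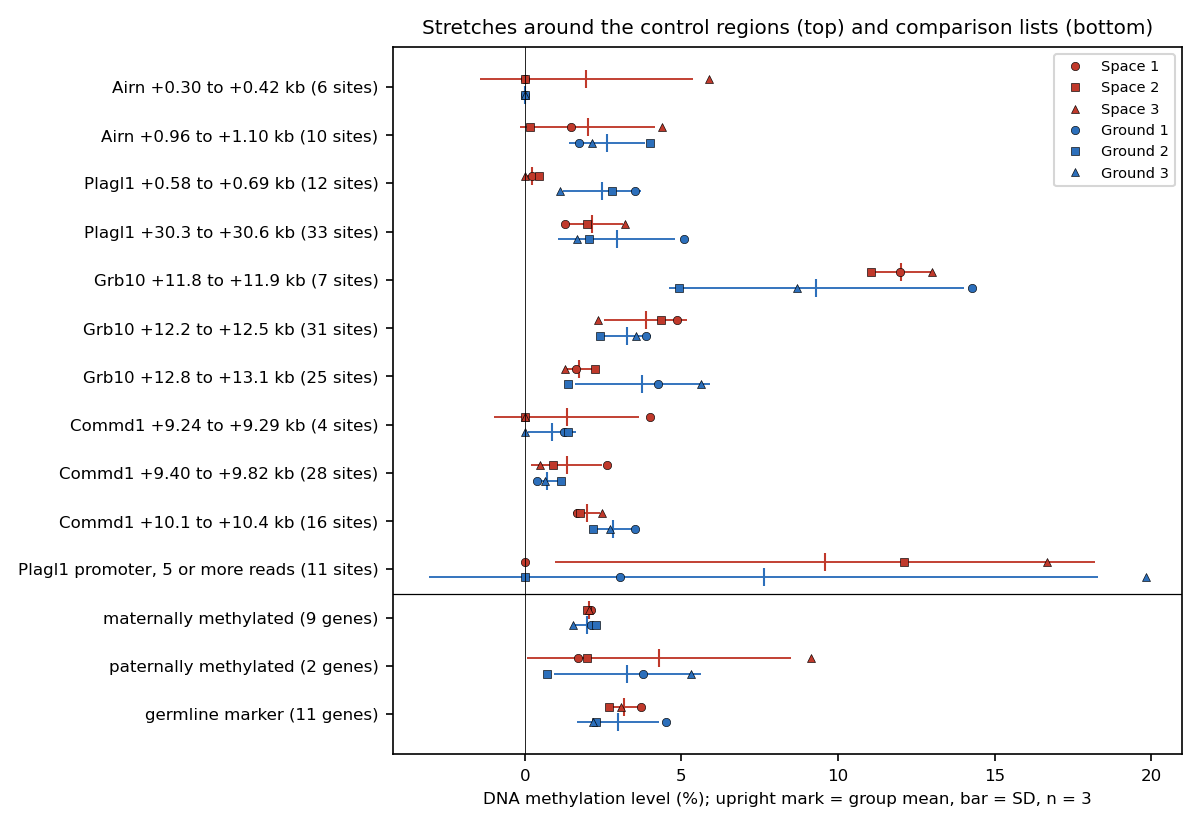
Methylation level (%) in each sample of the stretches of *Airn* and *Plagl1*, of the *Grb10* island and around *Zrsr1*, with the 11 less covered sites of the *Plagl1* promoter (top), and of 3 comparison lists (bottom), with upright marks for group means and bars for SDs (n = 3). The *Plagl1* promoter reaches 19.8% and the *Grb10* stretch at 11827 bp 14.3%, and the samples of the other stretches lie under 6%. For the 9 genes listed for maternal methylation, the mean of the windows at the TSS lies between 1.54% and 2.26%.

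Sites near the TSS of other imprinted genes were also low in these 6 samples. The 12 listed genes with a maternally methylated germline region were compared by their sites within 1 kb of the TSS in the table. Of them, 9 had at least 3 sites. Whether these windows hold the methylated regions was not checked, so the values describe the windows only. At *Plagl1*, the TSS of the table lay about 30 kb from the control region. Their means over the 6 samples were 1.01% (*Inpp5f*) to 3.02% (*Nnat*), and the mean of the 9 genes was 2.05% ± 0.0562 in Space and 1.97% ± 0.377 in Ground GS cells. *Snrpn*, *Mest* and *Sgce* had 0 sites. By the mean absolute difference over the 6 samples, the genes most like the *Airn* stretch at 960 bp were *Gnas* (0.994 percentage points), *Nnat* (1.01) and *Mcts2* (1.04). For the *Plagl1* stretch at 30321 bp they were *Gnas* (0.952), *Trappc9* (1.09) and *Mcts2* (1.25), and for the *Zrsr1* stretch at 10125 bp *Gnas* (0.737), *Trappc9* (0.864) and *Mcts2* (1.24). For the *Grb10* stretch at 12220 bp they were *Peg3* (1.39), *Gnas* (1.67) and *Trappc9* (1.90). Such likeness was not particular to the control regions. The nearest gene was closer for some other low stretches, as at the *Igf2r* promoter (*Inpp5f*, 0.528) and the *Commd1* TSS (*Inpp5f*, 0.610). It was farther for others, as at the *Grb10* TSS (*Kcnq1ot1*, 3.80).

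Of 3 genes with paternally methylated control regions, *Meg3* (4.78%, 9 sites within 1 kb) and *Rasgrf1* (2.76%, 11 sites) had at least 3 sites, and *H19* had 2. These windows lie at the TSS, and the paternally methylated regions of these genes lie farther away, so the values do not describe those regions.

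DNA of the MEF feeder cells would carry the somatic pattern, with a methylated maternal copy. The promoters of 15 genes that are unmethylated in germ cells and methylated in somatic cells were therefore read beside the imprinted loci. Of them, 11 had at least 3 sites within 1 kb of the TSS, and all 11 were under 10%, from 0.741% (*Mael*) to 8.12% (*Brdt*). No gene of the 11 was at 0 in all samples. Their mean was 2.69% to 3.71% in the Space replicates and 2.18% to 4.50% in the Ground replicates. The part of feeder DNA in the levels of the imprinted loci was not tested.

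Over whole loci, the levels of the groups differed by less than 2 percentage points. The mean level was 23.0% ± 1.60 in Space and 22.6% ± 0.840 in Ground GS cells over the 80 sites of the *Igf2r* locus, and 11.6% ± 0.241 and 11.4% ± 0.253 over the 136 sites of the *Grb10* locus. It was 1.64% ± 0.669 and 2.81% ± 1.65 over the 45 *Plagl1* sites, and 2.22% ± 0.660 and 2.64% ± 0.243 over the 71 sites of the *Zrsr1* locus. The exact permutation p was 0.7, 0.5, 0.5 and 0.4 in this order (two-sided), and 3 against 3 samples cannot give less than 0.1. The sign of the difference at the *Igf2r* and *Grb10* loci turned when reads were pooled over sites.

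**Figure D4:**
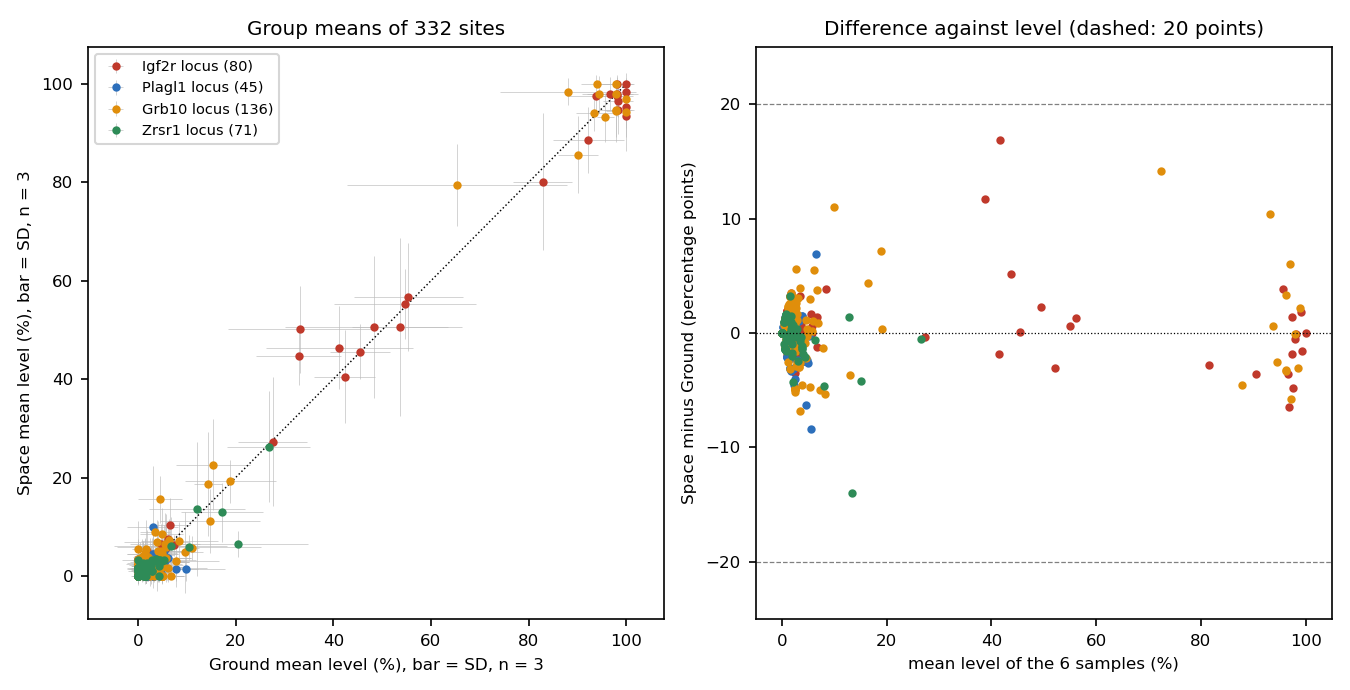
Mean level (%) of the 332 sites in Space against Ground GS cells with SDs as bars (n = 3, left), and the difference Space minus Ground in percentage points against the mean level (right), colored by locus. The sites follow the line of equal levels, and no site passes the dashed lines at 20 points.

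At single sites, 47 of the 332 had a mean level of 5% to 95% and were tested, and 0 passed an adjusted p of 0.05 (quasi-binomial test moderated with limma, smallest adjusted p 0.974), as did 0 of 92042 sites of the whole table (background 0%). At 2 of the 47 sites the unadjusted p was under 0.05, which is 4.26% compared with a background of 4.75%. These were the *Slc22a2* site at 12425 bp and the *Commd1* site at 8236 bp. The *Slc22a2* site (mm39 chr17:12815443) had 53.7%, 40% and 56.7% in Space and 36.0%, 46.4% and 17.2% in Ground GS cells, the largest difference of all 332 sites at 16.9 percentage points (unadjusted p = 0.0325). The *Plagl1* site with the largest difference, at 30469 bp, had 1.45% ± 2.51 and 9.82% ± 7.94 (unadjusted p = 0.106). Limma on log2 ratios gave 2 and Fisher's exact test on pooled reads gave 3 sites with an unadjusted p under 0.05, and 0 past the adjusted threshold.

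The 3 replicates of 1 group lay all above those of the other at 13 of the 332 sites (3.92%), compared with a background of 4.99%. No site differed by more than 20 percentage points, against a background of 0.196%. The level was higher in Space GS cells at 140 sites, lower at 153 and equal at 39, and the median absolute difference was 1.33 percentage points, compared with 1.45 over all sites.

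Among the 26 stretches, 0 passed an adjusted p of 0.05 (smallest adjusted p 0.942 in the same test), with a background of 0%. The unadjusted p was under 0.05 at 2 (7.69%, background 4.9%), and the groups did not overlap at 2 (7.69%, background 9.26%). In both cases these were the *Plagl1* stretch at 580 bp, lower in Space, and the *Grb10* stretch at 852 bp, higher in Space. The level was higher in Space at 13 stretches and lower at 13, and the median of the absolute differences was 0.829 percentage points, against 1.08 over 49134 stretches. For promoters, counted as sites within 1 kb of the TSS, 7 genes could be tested and 0 passed (background 0%). The groups did not overlap at 1 of the 7 (background 9.73%). It was that of *Plagl1*, whose 12 sites are the stretch at 580 bp and which had an unadjusted p of 0.0352 and an adjusted p of 0.962 in the quasi-binomial test moderated with limma, and promoters with an unadjusted p under 0.05 made up 4.72% of the background.

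Some low stretches had a methylated read at every site in a sample. Single reads were not followed from site to site, so these need not be the same reads. In 15 low stretches with at least 5 sites, 7 of the 90 combinations of stretch and sample (7.78%) had a methylated read at every site, and 9 (10%) had none. Over all 22980 such stretches of the table the shares were 8.30% and 8.39%. The 7 combinations were in Space 1, Space 3, Ground 1 and Ground 2, with Space 3 holding 3 of them, in *Airn*, *Grb10* and *Slc22a3*. Sites of 1 stretch that share reads are not independent measurements, and intervals cover counting error only.

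The less covered sites extended these descriptions. The 168 sites with 5 to 9 reads in the least covered sample had a mean level under 10% at 132 sites, 10% to 90% at 18 and over 90% at 18. They added methylated sequence around the low starts: 10 sites at 62087 to 62418 bp upstream of *Grb10* had 75.4% to 83.2%, 3 sites at 2712 to 2798 bp upstream of *Grb10* had 93.3% to 100%, and 2 sites at 14989 to 15070 bp upstream of *Airn* had 81.8% to 100%. At the *Grb10* island, the 51 sites from 11827 to 12489 bp had 7.49% ± 2.10 in Space and 5.45% ± 2.75 in Ground GS cells.

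The reads summed over all sites ranged from 28535973 to 33743845 per sample, and the median coverage of the 332 sites from 25 to 31 reads. At 10 reads, 1 read moves a site by 10 percentage points.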

How the data were processed

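Genomic DNA of 6 samples (3 Space, 3 Ground, grouped by their titles) was analyzed by RRBS. The deposited table covers all 6 samples. For every CpG site the authors gave a count of reads (the coverage) and the percent of them that were methylated. The submitters' processing notes name Trim Galore, Bismark 0.24.2, methylKit and mm39, without roles. Whether duplicate reads were removed and whether both strands of a site were merged are not given in the sources used here, and either step changes the coverage. The authors' distance to the closest TSS was used as deposited.

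The methylated reads of a site were computed from its coverage and percent. Sites needed 10 reads in all 6 samples. Tests at sites (mean level 5% to 95%), stretches (3 or more sites with gaps of up to 100 bp) and promoters (at least 3 sites within 1 kb) used a quasi-binomial test over the whole table, with the Pearson dispersion moderated by squeezeVar of limma 3.58.1 in R 4.3.3 and Benjamini-Hochberg adjustment at 0.05. It was also run on simulated differences of at least 20 percentage points. These are larger than any at the 332 sites, so the simulation does not cover differences of the size seen here. Levels were compared with two-sided exact permutation tests. Python 3.11.15, pandas 2.3.3, scipy 1.17.1 and matplotlib 3.10.9 were used. Sequences were from RefSeq and GENCODE on GRCm38. The genes, gene lists and tests were chosen with earlier results of these data known. Named sites were the one with the largest difference and the one with the smallest p at each locus; other sites were named after their values were seen. Alternatives were 5 or 20 reads, pooled reads, sites within 5 kb, promoters of 2 kb, gaps of 50 or 200 bp, mean levels of 1% to 99%, limma on log2 ratios with 2 reads added, Fisher's exact test, a replicate block and leaving out each replicate.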

Additional observations from a re-analysis of the deposited data

How the results depend on the processing

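The number of sites, stretches and promoters past the adjusted threshold was 0 under each alternative run, including 0 to 0 when each replicate was left out in turn and 0 with the replicate block. The sign of small differences was less stable, and no result below passed a threshold. The difference (Space minus Ground, percentage points) at the *Igf2r* locus was 0.351 and became -0.000554 with pooled reads. At the *Grb10* locus it was 0.16 and became -0.198 with pooled reads, and at the *Zrsr1* locus it was -0.421 and became 0.181 at 5 reads. The cause was not tested. With 20 reads the difference at the *Zrsr1* locus was -0.735 over 39 sites. There the groups did not overlap (exact permutation p = 0.1, the smallest that 3 against 3 samples allow). Leaving out 1 replicate gave -0.170 to 1.27 at the *Igf2r* locus, where it turned negative without Space 1 (-0.0487), Space 3 (-0.170) or Ground 3 (-0.0922). It gave -1.81 to -0.237 at *Plagl1*, 0.0162 to 0.299 at *Grb10* and -0.801 to -0.215 at *Zrsr1*. For the stretches nearest the TSS in the table it gave 0 to 2.94 at *Airn* (297 bp), 0 without Space 3, -2.93 to -1.72 at *Plagl1* (580 bp), and -3.14 to 0.570 at the 3 sites around the *Grb10* TSS, positive without Ground 3 (0.570).

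An alternative chosen after seeing the data took the stretch at the known control region instead, and the difference became -0.613 at *Airn* (from 1.96), 0.594 at *Grb10* (from -1.24) and -0.772 at *Plagl1* (from -2.25, with an exact permutation p of 0.6 in place of 0.1). For *Zrsr1* there was no stretch under its own name.

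The samples share replicate numbers in their titles. Between Space and Ground samples, a correlation over tested sites was 0.00988 to 0.0438 for same-numbered samples and -0.0367 to 0.0146 for differently numbered ones. It is not a correlation of the levels themselves, which were alike in all 6 samples from the lowest to the highest sites. All these correlations were small. The sources used here do not say whether same-numbered samples are a pair, so the block was not read as a pairing. It left each difference as it was (0.351 at the *Igf2r* locus, -2.25 at the *Plagl1* stretch) with exact sign-flip p of at least 0.25, the smallest that 3 pairs allow, and 0 calls. Mean levels of genes and stretches moved by more than the replicate SD in 19 of 94 comparisons with another minimum or pooled reads, among them *Airn*, which was 10.5% at 5 reads through 2 methylated sites upstream. The median coverage of 25 to 31 reads limits what single sites can show.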
